A study of Bos taurus with 6 samples.

Results

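Cell cycle and proliferation genes were described in intramuscular fat (IMF), the fat between muscle fibres, of castrated and intact male cattle. A list of 41 gene symbols of cyclins, cyclin-dependent kinases (CDKs), replication proteins, mitotic proteins and CDK inhibitors defined the set, and all 41 were among the 25444 genes of the mRNA count table. Reads were counted on 40 of them. The animals were Chinese Qinchuan males of 24 months, all weaned at 3 months and kept on the same diet. The castrated males (steers) had been operated on under local anesthetic at 6 months, and the intact males (bulls) had not. IMF was dissected from the sternomandibularis, a neck muscle, and the RNA of each group was pooled into 1 library. The design text gives 6 animals behind each library, whereas the sample descriptions give 3. The libraries held 12677375 counts in steers against 9868415 in bulls. Because animals were pooled, the spread between animals is unknown, and every comparison is between 2 libraries. Fat cell markers were abundant in both, with 4499 and 5386 counts on PLIN1, which coats lipid droplets. Skeletal muscle RNA was present as well, with 13852 counts on ACTA1 (skeletal muscle actin) in steers and 19910 in bulls.

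A dividing cell passes from G1 through DNA synthesis (S) and G2 to mitosis (M). D-type cyclins with CDK4 and CDK6, and then E-type cyclins with CDK2, release E2F transcription factors from the retinoblastoma proteins. E2F factors switch on genes for replication, and a later program switches on genes for G2 and mitosis. CDK inhibitors hold the kinases back. Mature fat cells do not divide, so dividing cells in fat are mostly progenitors, vascular cells and blood-derived cells.

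Genes of G2 and mitosis were lower in the steers library than in the bulls library, and the genes of the replication helicase were close to equal. Genes of G1 differed in both directions, by less than the fold threshold. Of the 40 members with a count, 15 were called downregulated in steers and 0 were called upregulated. A gene was called when an exact binomial test between the libraries (two-sided, Benjamini-Hochberg adjusted) gave an adjusted p under 0.05 and the absolute log2 ratio was over 1. Over the whole table, 8.13% of the 17752 genes tested were called downregulated and 4.37% upregulated, compared with 37.5% and 0 of the members. The median log2 ratio was -0.71 for the members and 0.01 for all genes tested. Below 0 lay 33 of the 40 members (82.5%) and 49.3% of all genes tested. The counting interval lay wholly below 0 for 24 members, wholly above 0 for 4 (CCND1, CCND2, CDK4 and CDKN1A), and included 0 for 12. Log2 ratios set steers against bulls, on counts scaled by the median of ratios, and brackets hold 95% Clopper-Pearson intervals. These intervals cover counting error only, not the spread between animals. Reads are not independent molecules, so the intervals may be too narrow for counting error as well. In tissue RNA, fewer dividing cells and less RNA of these genes per cell cannot be told apart.

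**Figure D1:**
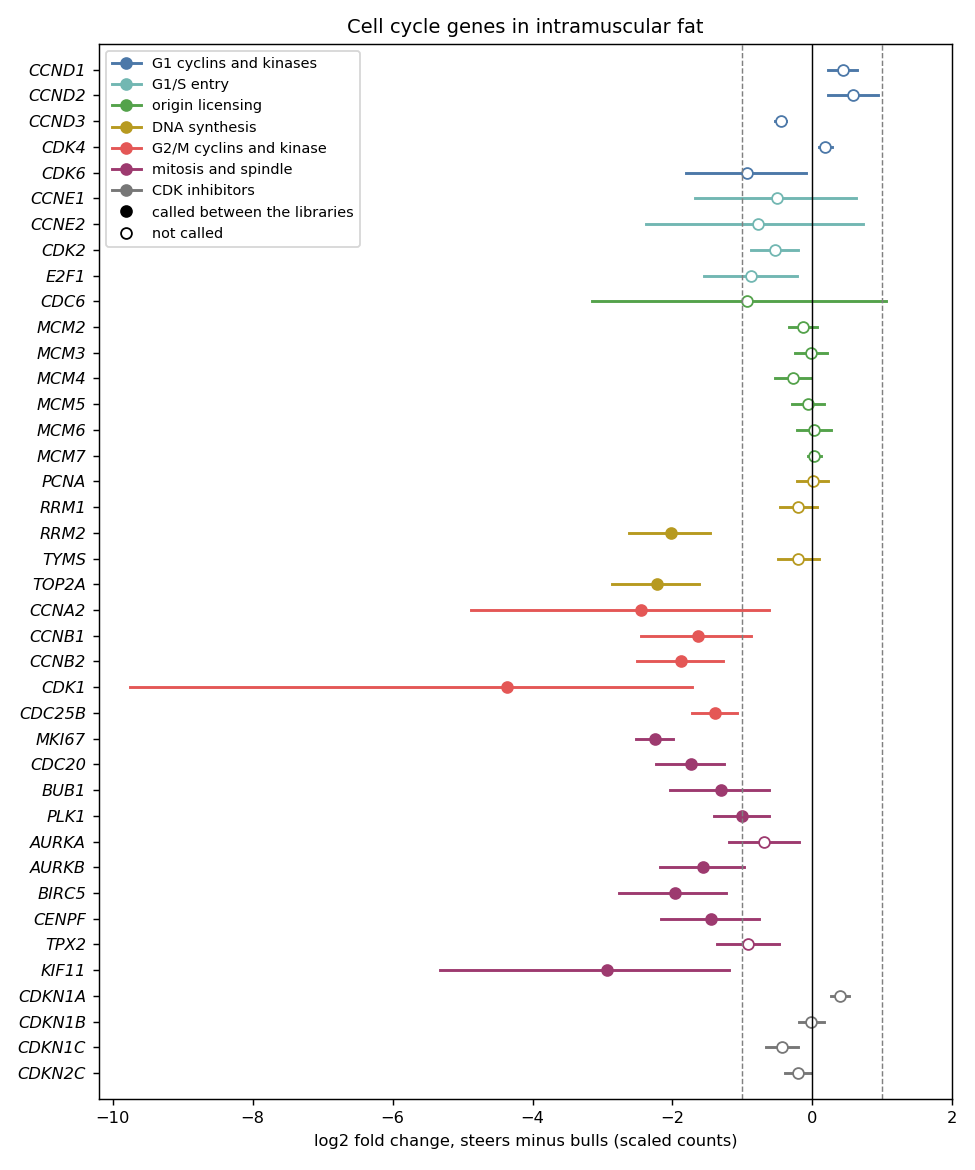
Log2 ratio of each member with a count, steers against bulls (x axis), with genes on the y axis coloured by role. Points are the ratios of scaled counts in 1 library per group, lines are 95% counting intervals, filled points were called, and dashed lines mark the fold threshold. The 15 filled points all lie left of -1, and the MCM genes lie near 0.

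The cyclins and the kinase of G2 and mitosis were all called downregulated. CDK1, the kinase that drives entry into mitosis, had 1 count in steers and 19 in bulls, a log2 ratio of -4.37 (-9.75 to -1.72). With a single count in steers, the size of this fall is poorly known. Cyclin A2 (CCNA2), which serves in S phase and G2, had 3 and 15 counts and a log2 ratio of -2.44 (-4.87 to -0.62). The B-type cyclins are the partners of CDK1. CCNB1 had 20 counts in steers against 57 in bulls and fell by 1.63 on the log2 scale (-2.45 to -0.88). CCNB2 had 30 and 101 counts and fell by 1.87 (-2.51 to -1.27). The share of CCNB2 in the counts of both was 60% in steers and 63.9% in bulls, with overlapping exact binomial intervals. CDC25B, a phosphatase that activates CDK1, had more counts than the other genes of this group, 118 and 285, and fell by 1.39 (-1.72 to -1.08). Together the 5 genes took 13.6 CPM (counts per 1000000 counts of the library) in steers and 48.3 in bulls, so that they were 3.02-fold higher in bulls after scaling.

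Among the 11 genes of mitosis and the spindle, 8 were called downregulated, 2 were below 0 and not called, and BUB1B had no count. MKI67, which encodes the Ki-67 antigen of dividing cells, had 144 counts in steers against 629 in bulls. Its log2 ratio was -2.25 (-2.52 to -1.99), a 4.75-fold higher level in bulls. KIF11, a motor protein that separates the spindle poles, had 3 and 21 counts and a log2 ratio of -2.93 (-5.32 to -1.19). These were the genes with the most and the fewest counts of the group, apart from BUB1B.

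Chromosome passenger proteins correct the attachment of chromosomes to the spindle. BIRC5 (survivin) had 20 counts in steers against 72 in bulls and fell by 1.97 (-2.76 to -1.24). Its partner kinase AURKB had 34 and 92 counts and fell by 1.56 (-2.17 to -0.98). The related kinase AURKA acts at the spindle poles and had 58 and 86 counts, with a log2 ratio of -0.69 (-1.20 to -0.19) that was not called. TPX2, which activates AURKA on the spindle, was not called either, with 68 and 118 counts and a log2 ratio of -0.92 (-1.37 to -0.47). Both of these intervals lay below 0. The 2 genes also passed the adjusted p threshold, so they missed the fold threshold alone. With total counts as the scaling TPX2 was called, at -1.16.

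The checkpoint genes and the genes of chromosome movement were called as well. CDC20, which activates the ubiquitin ligase that ends metaphase, had 48 counts in steers against 147 in bulls and fell by 1.74 (-2.24 to -1.26). The checkpoint kinase BUB1 had 26 and 59 counts and fell by 1.30 (-2.03 to -0.62). The kinetochore protein gene CENPF had 26 and 65 counts and fell by 1.44 (-2.16 to -0.77). PLK1, a kinase active from G2 to the end of mitosis, had 86 and 159 counts. Its log2 ratio of -1.01 (-1.40 to -0.62) lay at the threshold, and with upper-quartile scaling it was -0.99 and not called. BUB1B, a further checkpoint gene, had 0 counts in both libraries, which allows up to 0.237 CPM in steers and 0.304 in bulls (3 counts each).

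**Figure D2:**
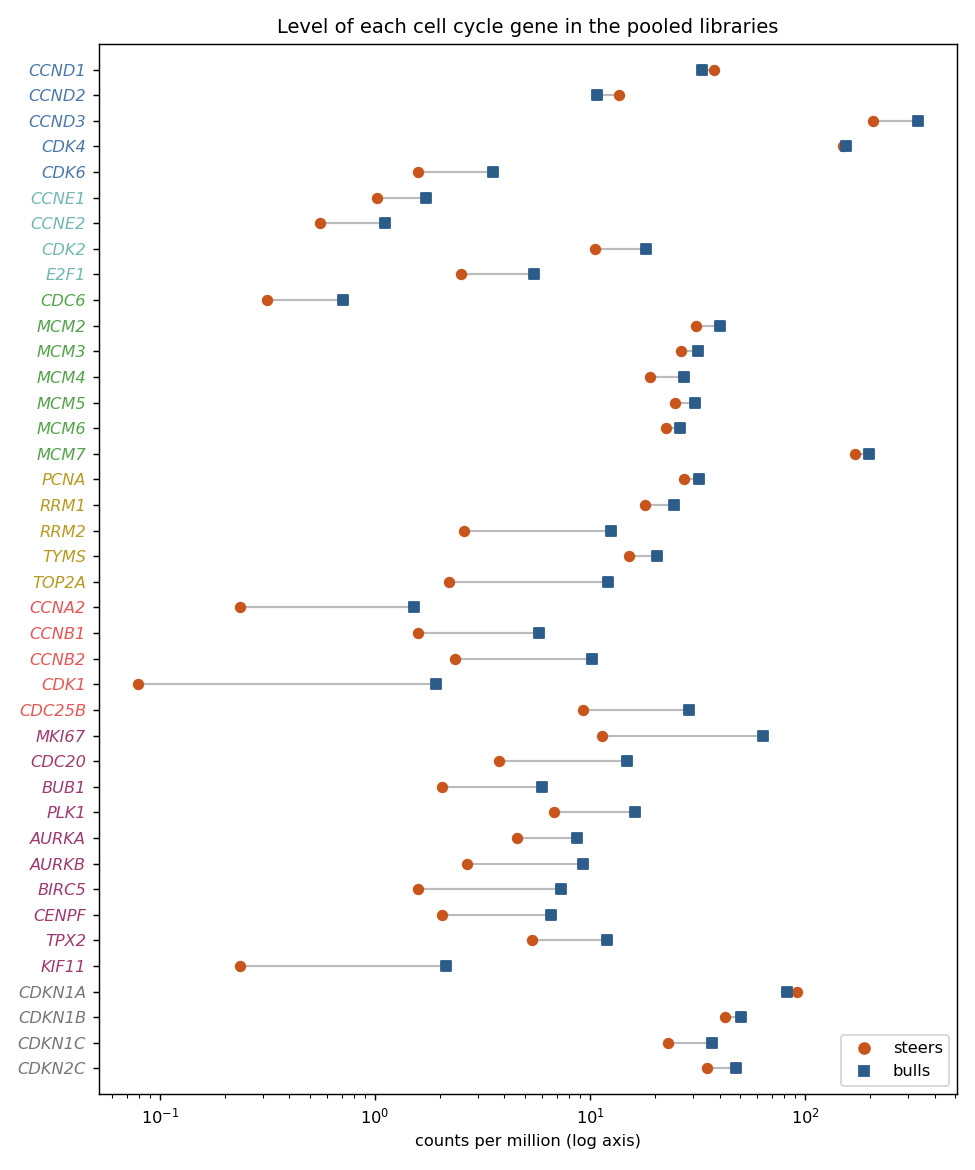
Level of each member with a count in the steers (circles) and bulls (squares) libraries, in CPM on a log axis, with gene names coloured by role as in the plot of fold changes. Levels are not corrected for gene length and should be compared within a gene. MKI67 stands at 11.4 in steers and 63.7 in bulls.

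The genes of DNA synthesis were divided. RRM2, the subunit of ribonucleotide reductase that is made anew in S phase, had 33 counts in steers against 123 in bulls and fell by 2.02 (-2.62 to -1.46). Its partner subunit RRM1 had 229 and 242 counts and a log2 ratio of -0.20 (-0.47 to 0.06). RRM2 therefore made up 12.6% of the counts of both subunits in steers (exact binomial interval 8.83 to 17.2%) and 33.7% in bulls (28.9 to 38.8%). This share does not depend on how the libraries are scaled, and the intervals did not overlap. TOP2A, the topoisomerase that untangles sister chromosomes before they part, had 28 and 120 counts and fell by 2.22 (-2.87 to -1.62). PCNA, the sliding clamp of DNA polymerases, had 346 and 317 counts and a log2 ratio of 0.00 (-0.22 to 0.23). TYMS, which makes thymidylate, had 192 and 203 counts and a log2 ratio of -0.20 (-0.49 to 0.09). The intervals of PCNA, RRM1 and TYMS all included 0 and excluded a 2-fold fall.

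MCM2 to MCM7 form the helicase that is loaded on replication origins in G1. None of the 6 was called, and their log2 ratios ran from -0.28 for MCM4 to 0.03 for MCM7. MCM7 had 2171 counts in steers against 1953 in bulls, more than the other 5 together. MCM2 had 395 and 398 counts, and its interval of -0.34 to 0.07 included 0. MCM4 had 241 and 269 counts and an interval of -0.54 to -0.02. As a sum the 6 genes had 3745 counts in steers against 3494 in bulls, a log2 ratio of -0.02 (-0.09 to 0.04). With total counts as the scaling, the median of all genes moved to -0.23 and the licensing group, which also holds CDC6, moved with it to -0.26. MCM7 took 58.0% of the counts of the 6 in steers and 55.9% in bulls, with overlapping exact binomial intervals. CDC6, which loads the helicase, was scarce at 4 and 7 counts, and its interval of -3.15 to 1.05 does not allow a statement at this depth.

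The 4 genes that start S phase lay below 0 in steers, without a call. The E-type cyclins CCNE1, at 13 and 17 counts, and CCNE2, at 7 and 11, had intervals that included 0. CDK2 had 134 counts in steers against 179 in bulls and a log2 ratio of -0.54 (-0.87 to -0.21). E2F1 had 32 and 54 counts and a log2 ratio of -0.88 (-1.56 to -0.22). Among the scalings, total counts alone led to a call of E2F1, at -1.12. Summed over the 4 genes, the log2 ratio was -0.61 (-0.89 to -0.33).

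The D-type cyclins differed among themselves. CCND3 was the most counted of all members, with 2637 counts in steers against 3321 in bulls and a log2 ratio of -0.45 (-0.53 to -0.38). CCND1 had 480 and 326 counts and a log2 ratio of 0.44 (0.23 to 0.64). CCND2 had 172 and 106 counts and a log2 ratio of 0.58 (0.22 to 0.94). None of the 3 passed the fold threshold. Within the family, CCND3 took 80.2% of the counts in steers (78.8 to 81.5%) and 88.5% in bulls (87.4 to 89.5%). CCND1 took 14.6% (13.4 to 15.8%) and 8.69% (7.80 to 9.63%). For both genes the intervals of the libraries did not overlap, and these shares do not depend on the scaling. The ratio of CCND3 to CCND1 was 1.85 times higher in bulls (1.59 to 2.16). The sum of the G1 cyclins and kinases, at a log2 ratio of -0.15 (-0.21 to -0.10), turned to 0.24 without CCND3.

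Of the kinases of the D-type cyclins, CDK4 had 1902 counts in steers against 1536 in bulls. Its log2 ratio was 0.19 (0.09 to 0.28), and -0.05 with total counts. CDK6 had 20 and 35 counts and a log2 ratio of -0.93 (-1.80 to -0.10), and among the scalings it was called with total counts alone, at -1.17. CDK6 supplied 1.04% of the counts of both kinases in steers and 2.23% in bulls, with overlapping exact binomial intervals.

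**Figure D3:**
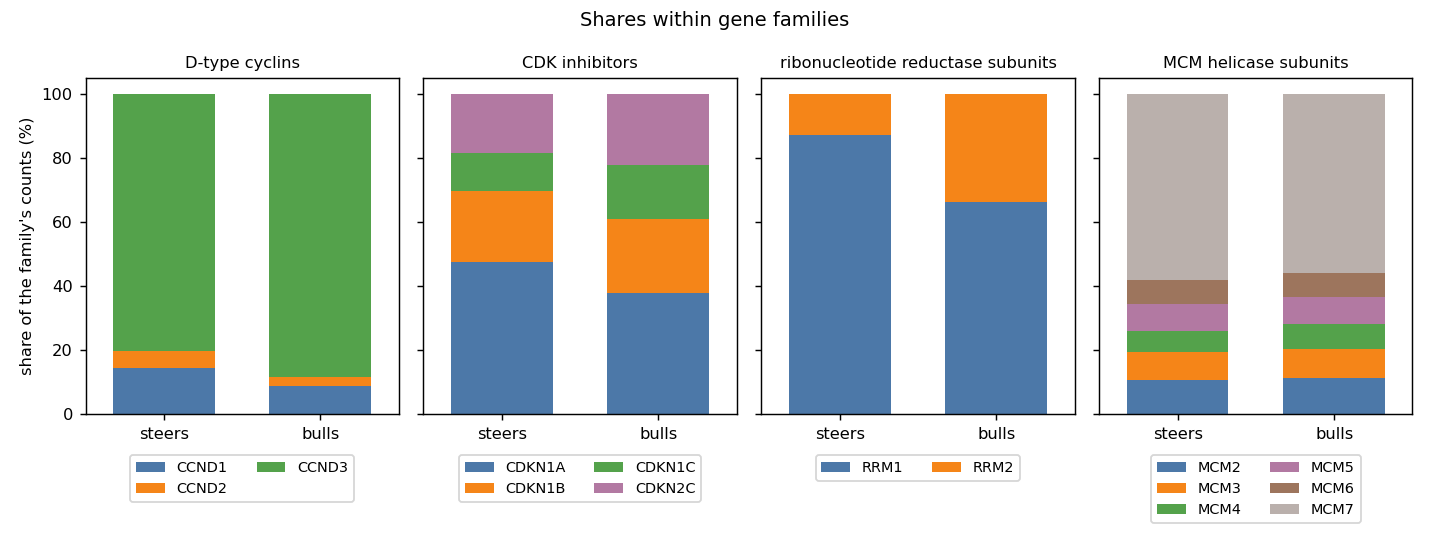
Share of each gene in the counts of its family (y axis, percent) in the steers and bulls libraries, for D-type cyclins, CDK inhibitors, ribonucleotide reductase subunits and MCM subunits. RRM2 is 12.6% of its pair in steers and 33.7% in bulls, CCND3 is 80.2% and 88.5% of the D-type cyclins, and MCM7 is 58.0% and 55.9% of the MCM subunits.

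The CDK inhibitors had 2431 counts in steers against 2140 in bulls, and none of the 4 was called. CDKN1A (p21), which is induced by DNA damage and in cells that leave the cycle, had 1158 and 809 counts and a log2 ratio of 0.40 (0.26 to 0.53). CDKN1C (p57), an imprinted inhibitor, lay on the other side with 293 and 364 counts and a log2 ratio of -0.44 (-0.66 to -0.21). CDKN1B (p27) had 537 and 498 counts and a log2 ratio of -0.01 (-0.19 to 0.17). CDKN2C (p18), an inhibitor of CDK4 and CDK6, had 443 and 469 counts and a log2 ratio of -0.20 (-0.40 to -0.01). CDKN1A took 47.6% of the counts of the 4 in steers (45.6 to 49.6%) and 37.8% in bulls (35.7 to 39.9%). The summed log2 ratio of the group was 0.06 (-0.02 to 0.15), and -0.18 with total counts.

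The contrast between mitotic and licensing genes was then taken within each library, which removes the scaling. It restates the difference between the sums of these groups and is not a separate result. For each 100 counts on licensing genes there were 13.7 counts on mitotic genes in steers and 41.4 in bulls. The ratio was 3.02 times higher in bulls (conditional exact interval 2.70 to 3.38). Without MKI67, which supplied 629 of the 1448 mitotic counts in bulls, it was 2.38 times higher (2.08 to 2.72). Without both MKI67 and MCM7 it was 2.26 times higher (1.96 to 2.61). The 5 genes of the G2/M group, which include the phosphatase CDC25B, gave 2.97 against the licensing genes (2.47 to 3.58). CDC25B supplied 118 of their 172 counts in steers and 285 of 477 in bulls. Without CDC25B the summed log2 ratio of the group was -1.95 instead of -1.59, so the value depends on this gene.

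Further cell cycle genes were taken from 4 lists written from general knowledge, but with earlier results of these data known. They are therefore not an independent check on the members. Of their 101 genes, 97 were in the table and 96 had a count. Of these, 22 were called downregulated and 3 upregulated, and the downregulated share was 22.9%, beside 8.13% of all genes tested (4.37% upregulated). Mitotic genes of these lists were called most often, 12 of 29 downregulated (41.4%) and 0 upregulated, with a median log2 ratio of -1.01. The summed counts of the list differed less, at a log2 ratio of -0.35 (-0.44 to -0.27), and the most counted gene, FZR1, an activator of the ligase that degrades cyclins, had 620 and 550 counts and a log2 ratio of 0.05. The 6 with the largest falls are given here, and the other 6 called lay between -1.65 for ANLN, a contractile ring protein, and -1.02 for KIF2C, a chromosome motor. KIF20A, a motor of cell division, had 42 counts in steers against 178 in bulls and a log2 ratio of -2.21 (-2.73 to -1.71). ASPM, a spindle pole protein, had 21 and 87 counts and fell by 2.17, and ESPL1, the protease separase, had 29 and 97 and fell by 1.86. KIF4A, a chromosome motor, had 5 and 21 counts and fell by 2.19. CDCA8, a chromosome passenger protein, had 11 and 40 and fell by 1.98, and CDC25C, a CDK1 phosphatase, had 1 and 10 and fell by 3.44 (-8.88 to -0.63). PTTG1 had 0 counts in both libraries. The mitotic list also held genes that were higher in steers without a call. They included WEE1, an inhibitory kinase of CDK1, with 138 and 65 counts and a log2 ratio of 0.96 (0.53 to 1.41). This gene was picked out after its values had been seen.

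Of 31 other replication genes, 3 were called downregulated (9.68%) and 2 upregulated (6.45%), near the shares of 8.13% and 4.37% in all genes tested, and the median was -0.14 (summed counts -0.13). The called genes are given as values only. UHRF1, which guides the copying of DNA methylation, had 30 and 121 counts and fell by 2.13 (-2.76 to -1.55). CDT1, a helicase loader, had 18 and 43 counts and fell by 1.38, and DUT, which removes dUTP, had 22 and 44 and fell by 1.12. GINS4, a subunit of the active helicase, had 63 counts in steers against 24 in bulls and rose by 1.27 (0.57 to 2.01).

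Among 18 genes of the retinoblastoma, E2F and DREAM regulators, 4 were called downregulated (22.2%) and 0 upregulated, with a median of -0.14 and a summed log2 ratio of 0.06 (-0.0087 to 0.13). FOXM1 and MYBL2 activate mitotic genes. FOXM1 had 9 counts in steers against 37 in bulls and fell by 2.16 (-3.40 to -1.08). MYBL2 had 59 and 110 counts and fell by 1.02 (-1.50 to -0.55). E2F8, a late E2F factor, had 2 counts in steers against 36 in bulls and a log2 ratio of -4.29 (-7.39 to -2.33). RBL1 (p107) had 15 and 59 counts and fell by 2.10 (-3.02 to -1.26). Of 18 other brakes and checkpoint genes, 3 were called downregulated (16.7%) and 1 upregulated (5.56%), beside 8.13% and 4.37% of all genes tested, with a median of 0.01 and a summed log2 ratio of -0.36 (-0.41 to -0.31). CDKN2B (p15), an inhibitor of CDK4 and CDK6, had 123 counts in steers against 27 in bulls and rose by 2.07 (1.46 to 2.72). Its relative CDKN2D (p19) had 51 and 110 counts and fell by 1.23 (-1.74 to -0.74). The antiproliferative gene BTG2 had 442 and 848 counts and fell by 1.06 (-1.23 to -0.89), and the checkpoint kinase gene CHEK1, at 4 and 16 counts, fell by 2.12 (-4.16 to -0.49).

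Markers of T lymphocytes, B lymphocytes and myeloid cells were lower in steers as well. Over all genes tested, 8.13% were called downregulated and 4.37% upregulated. Of 10 T lymphocyte markers, 9 were called downregulated (90%) and 0 upregulated. Their summed counts were 182 in steers (14.4 CPM) and 1051 in bulls (107 CPM), a log2 ratio of -2.65 (-2.89 to -2.42). CD3E, a part of the T cell receptor complex, was the most counted, at 35 and 253. Of 9 myeloid markers in the table, 7 were called downregulated, with sums of 20570 counts in steers (1623 CPM) and 42935 in bulls (4351 CPM) and a log2 ratio of -1.18 (-1.21 to -1.16). CSF1R, the receptor of macrophage growth factor, was the most counted of these, at 7057 and 12309. B lymphocyte markers were scarce, with 26 and 97 counts over the 7 in the table, or 2.05 and 9.83 CPM, and a log2 ratio of -2.02 (-2.71 to -1.38). CD22 held 14 and 68 of these and was the 1 marker called, and MS4A1 and CD79B were at 0 in both. The mitotic genes, at 40.5 and 147 CPM, had a log2 ratio of -1.62 (-1.77 to -1.47). As sums, this value lay between those of T lymphocyte and myeloid markers. By the median gene it did not, with -1.48 for the mitotic genes, -1.62 for myeloid markers and -3.16 for T lymphocyte markers. The part of these cells in the fall of the mitotic genes was not tested.

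The summed counts of the other cell types differed less than those of the mitotic genes or, for fibroblast and erythroid markers, were higher in steers. Beside 8.13% of all genes tested called downregulated and 4.37% upregulated, 0 of 8 endothelial markers were called. They had 10393 counts in steers against 9881 in bulls, a summed log2 ratio of -0.05 (-0.09 to -0.01), with PECAM1 the most counted at 4541 and 3723. Of 7 adipocyte markers in the table, 1 was called downregulated, FABP4 (a fatty acid binding protein). They had 32882 and 37612 counts, a log2 ratio of -0.32 (-0.34 to -0.29), and CIDEC, a lipid droplet protein, was the most counted at 9931 and 7501. Of 8 skeletal muscle markers, 2 were called downregulated and 1 upregulated, with 27610 and 38819 counts in all, a log2 ratio of -0.61 (-0.64 to -0.59), and ACTA1 the most counted. The slow fibre genes MYH7, at 675 and 2906 counts, and TNNT1, at 485 and 1801, fell by 2.23 and 2.01, more than the mitotic sum, and the fast fibre gene MYH1, at 247 and 102, rose by 1.15. Of 8 fibroblast markers, 2 were called upregulated and 0 downregulated. They had 1225882 counts in steers against 581994 in bulls, a log2 ratio of 0.95 (0.95 to 0.96), with COL3A1 the most counted. Erythroid markers had 40 and 8 counts over the 5 in the table, a log2 ratio of 2.20 (1.08 to 3.51). The globin genes HBA, at 16 and 6 counts, and HBB, at 21 and 1, were equally counted over both libraries, HBB was the 1 marker called upregulated, and ALAS2 was at 0 in both. For each 100 endothelial counts there were 4.94 mitotic counts in steers and 14.7 in bulls. For each 100 T lymphocyte counts there were 282 and 138, so this ratio in bulls was 0.489 times that in steers (0.403 to 0.591). For each 100 myeloid counts there were 2.49 and 3.37.

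**Figure D4:**
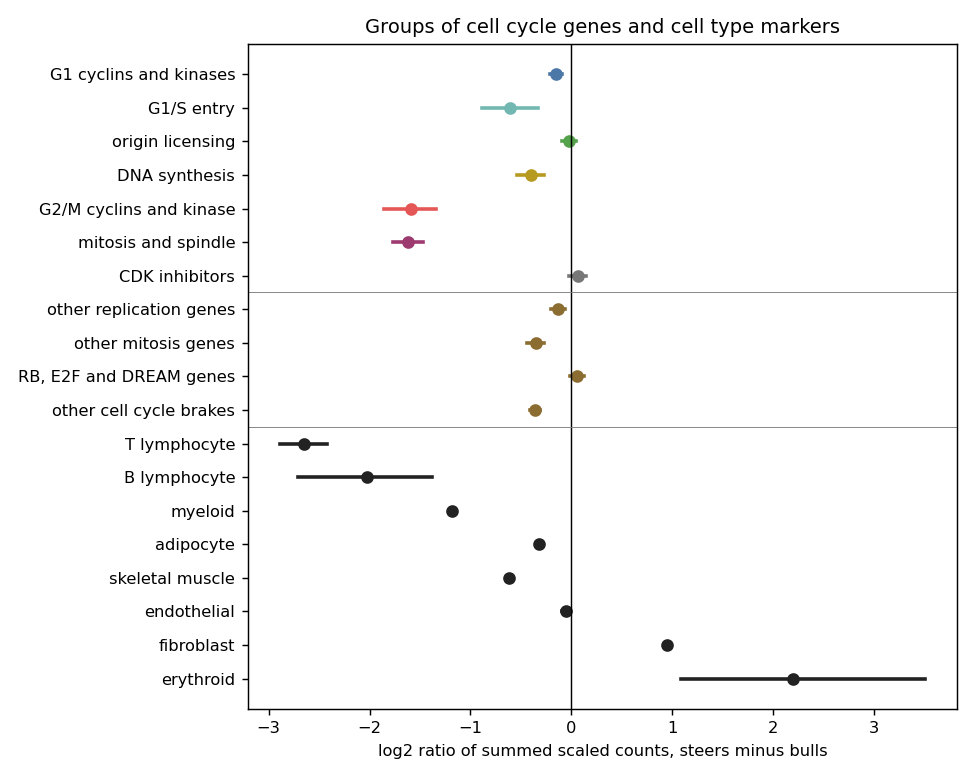
Log2 ratio of the summed scaled counts of each group, steers against bulls (x axis), for the roles of the members (top), the lists of other cell cycle genes (middle) and cell type markers (bottom). Lines are 95% counting intervals, hidden by the point where narrow. As sums, the G2/M and mitosis groups stand at -1.59 and -1.62, the other mitosis genes at -0.35, myeloid markers at -1.18 and T lymphocyte markers at -2.65.

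The calls depend on the spread assumed between pools. With an edgeR exact test and an assumed biological coefficient of variation (BCV) of 0.2, 10 members were called downregulated, compared with 4.29% of all genes. The 5 that were lost were CCNA2, CCNB1, BUB1, PLK1 and CENPF. With a coefficient of 0.4, no member was called and 0.524% of all genes were called downregulated. The true spread between such pools cannot be estimated from 1 library per group.

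**Figure D5:**
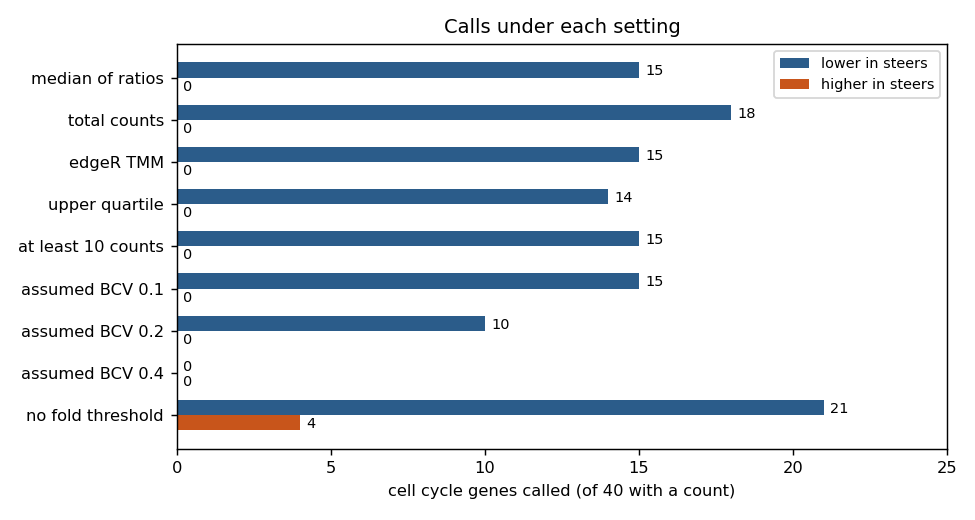
Number of members called lower (blue) or higher (orange) in steers, of 40 with a count (x axis), under each setting (y axis): scaling by the median of ratios, total counts, TMM or upper quartile, a minimum of 10 counts, an assumed biological coefficient of variation (BCV), and no fold threshold. The calls range from 0 with a BCV of 0.4 to 21 lower and 4 higher without a fold threshold, a setting where 18.3% of all genes were called lower and 19.9% higher.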

How the data were processed

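The authors sequenced the 2 pooled cDNA libraries on an Ion Proton, removed adaptors and low-quality reads and aligned the rest to the bovine genome (Bos 4.6.1) with MapSplice. The values deposited by the authors are raw read counts, 1 per gene and library. The counting program, its annotation and its use of strand are not given in the sources used here, so reads of overlapping genes or near-identical copies may be shared. The labels list a human build (GRCh37.p13), whereas the paper gives Bos 4.6.1. Which build lies behind the deposited counts could not be checked here.

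Size factors (1.04 for steers, 0.959 for bulls) were obtained by the median of ratios in numpy 2.4.6. Each gene was compared with an exact binomial test in scipy 1.17.1 (two-sided, by doubling the smaller tail), adjusted over the 17752 genes with at least 1 count. The test code was run on simulated Poisson counts. These follow the model of the test and hold no spread between pools, so they do not check the calls made here. List medians used a prior of 0.5 counts. TMM and upper-quartile factors and the exact test with assumed coefficients of variation of 0.1, 0.2 and 0.4 came from edgeR 4.0.16. The alternatives were those scalings, total counts, a minimum of 10 counts, a prior of 5 counts, no fold threshold, and sums without the most counted gene. The last were chosen after seeing the data.

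The members and lists were chosen with earlier results of these data known. All members are named, as are up to 6 called genes with at least 10 counts in each list of other cell cycle genes, and the most counted marker of each cell type with those at 0. All 41 symbols matched RefSeq symbols of ARS-UCD2.0. The 4 small RNA libraries and gene sequences were not analysed here. The values of 1 called gene of these lists are not reported here. WEE1, FZR1, ANLN, KIF2C and the called muscle, adipocyte and erythroid markers were named after their values were seen.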

Additional observations from a re-analysis of the deposited data

How the results depend on the processing

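No paired analysis was possible because each group had 1 mRNA library, which carries no replicate number. For the same reason no library could be left out. The 15 downregulated members (beside 8.13% of all genes) numbered 14 with upper-quartile scaling (8.01%), 15 with TMM (8.29%), 18 with total counts (11.3%), 15 with a minimum of 10 counts (9.75%) and 15 with an assumed coefficient of variation of 0.1 (7.04%). With a coefficient of 0.4, 0 members were called, and 52 of all genes were called upregulated and 93 downregulated; with 0.2 these were 368 and 762. Without a fold threshold 4 members were upregulated, CCND1, CCND2, CDK4 and CDKN1A, and 3535 of all genes were upregulated and 3254 downregulated. Under the settings used throughout this re-analysis, 776 of all genes were called upregulated and 1444 downregulated. With total counts, 21.2% of the called genes were upregulated instead of 35%. Total counts moved the summed log2 ratios to -0.39 for G1 cyclins and kinases, -0.26 for origin licensing, -0.64 for DNA synthesis, -1.86 for mitosis and -0.18 for CDK inhibitors. Without the most counted gene of each group, the G1 sum turned to 0.24 (without CCND3), and the others moved to -0.0945 for licensing, -0.64 for DNA synthesis, -1.95 for the G2/M group, -1.27 for mitosis and -0.19 for CDK inhibitors. These follow from the values of the genes left out. The mitotic to licensing ratio, 3.02 times higher in bulls, was 2.38 without MKI67 and 2.26 without MKI67 and MCM7. Depth limits CDC6, CCNE2, CDK1, CCNA2 and KIF11, each with fewer than 10 counts in steers.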
